A study of Mus musculus with 68 samples.

Results

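The transcripts described here are those that a reconstructed mouse embryo carries over from the oocyte and does not share with its nuclear donor. A gene was a member when the mean over the libraries collected 6 h post activation (6 hpa) was at least 100 TPM (a transcript's share of its library, scaled for length), the mean in the donor cumulus cells (CC) was under 5 TPM, and the gene stood among the top 200 by log2 of the 6 hpa mean plus 1 over the 8-cell (8C) mean plus 1. Names beginning with Obox, Fbxw, Zp, Nlrp or Oog were then left out. Of 24421 annotated genes, 995 reached 100 TPM at 6 hpa and 201 of these stayed under 5 TPM in CC. The rank removed 1 gene, Dppa5a, and the names removed 29, which left 171 members.

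The levels at 6 hpa, at 8C and in CC chose the members, so differences among these 3 groups are given as a description without a test. The rank on the 8C level removed only Dppa5a, so the choice did not by itself fix a fall to 8C. It rests almost wholly on a high level at 6 hpa and a low level in CC. Genes chosen as high at 6 hpa tend to stand lower elsewhere, so the fall is described by its stage and by what follows. At the limit of the rank the last members inside were Dppa3, Sall4 and Cth, with rank values of 0.52, 0.38 and −1.07, and Dppa5a lay outside at −4.67. The name "lost by the 8-cell stage" therefore does not hold for Dppa3, Sall4 and Cth, whose 8C means were 14398, 200.5 and 239 TPM.

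Cloned embryos (NT) were made by somatic cell nuclear transfer (SCNT): enucleated oocytes of BDF1 mice received the nucleus of a cumulus cell and were activated with strontium chloride in cytochalasin B. Smart-seq2, which amplifies polyadenylated RNA from a few cells, was run on 3 CC libraries, on 6 NT libraries each at 6 hpa, 14 hpa, the early 2-cell (E2C), late 2-cell (L2C), 8C and morula stages and of both blastocyst lineages, the inner cell mass (ICM) and the trophectoderm (TE), and on 5 libraries at 4-cell (4C). A separate set of fertilised embryos (NF) was injected as zygotes with a morpholino against Max, against Mcrs1, or a random control, and gave 2 ICM and 2 TE libraries per treatment. In the paper, fertilised embryos had C57BL/6j parents. For the sequenced blastocysts it gives a higher concentration for the control morpholino than for either targeting one. Each library pooled several blastomeres, and the labels do not tie replicates to separate collections, so p-values measure the spread between these libraries only.

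In the mouse, the growing oocyte transcribes and stores the messages that carry the embryo through its first divisions, and it is transcriptionally silent by the time of ovulation. Many stored messages are held with short poly(A) tails and are recruited or degraded in waves. An early wave accompanies maturation and activation of the egg and uses maternal proteins such as the CCR4-NOT adaptor BTG4, and a later wave depends on products of the embryo's own genome, whose main activation in the mouse falls in the 2-cell stage. Because only polyadenylated RNA is captured, a message whose tail is shortened or lengthened can change its level without being made or destroyed. TPM is a share of a library, and total RNA per embryo was not measured, so a fall of the members and a rise of other transcripts cannot be told apart.

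The libraries held between 1.00 and 5.17 gigabases of aligned sequence, and annotated genes took from 30.4% to 94.4% of the TPM. The lowest of these shares belonged to L2C, where replicates 1 to 3 had 30.4% to 51.8% and replicates 4 to 6 had 57.8% to 61.8%. In ICM, replicates 1 to 3 detected 6177 to 6771 genes at 1 TPM and replicates 4 to 6 detected 9011 to 10032. Cumulus markers (25 genes) summed to between 6580 and 8486 TPM in CC and to between 6.73 and 97.5 TPM in all NT libraries.

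At 6 hpa the members ranged from 100.8 to 20633 TPM with a median of 219 TPM, and 27 of them exceeded 1000 TPM. Dppa3, which protects the maternal genome from loss of DNA methylation, was the most abundant and took 12.7% of the members' sum. With Omt2b and Tcl1 the share was 31.3%, and the top 10 (also Omt2a, E330034G19Rik, the oocyte linker histone H1foo, Btg4, the Bcl-2 family member Bcl2l10, E330021D16Rik and the oocyte-secreted protein gene Oosp3) took 55.8%.

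Together the members made up 16.2% ± 1.40 (SD, n = 6) of all TPM at 6 hpa, 14.3% ± 0.621 (n = 6) at 14 hpa and 16.6% ± 0.312 (n = 6) at E2C. The share then dropped to 7.15% ± 3.58 (n = 6) at L2C and to 1.35% ± 0.248 (n = 5) at 4C. The sum thus stood nearly level through the first division, and each later stage to 4C lay below the lowest E2C library. At 8C it was 1.59% ± 0.101 (n = 6), of which Dppa3 alone made up 90.5%. Without Dppa3 the sum went from 14.1% at 6 hpa to 6.45% at L2C, 0.415% at 4C and 0.151% at 8C, and stayed between 0.141% and 0.157% in morula, ICM and TE. The CC libraries held 0.0191% ± 0.00214 (n = 3).

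**Figure D1:**
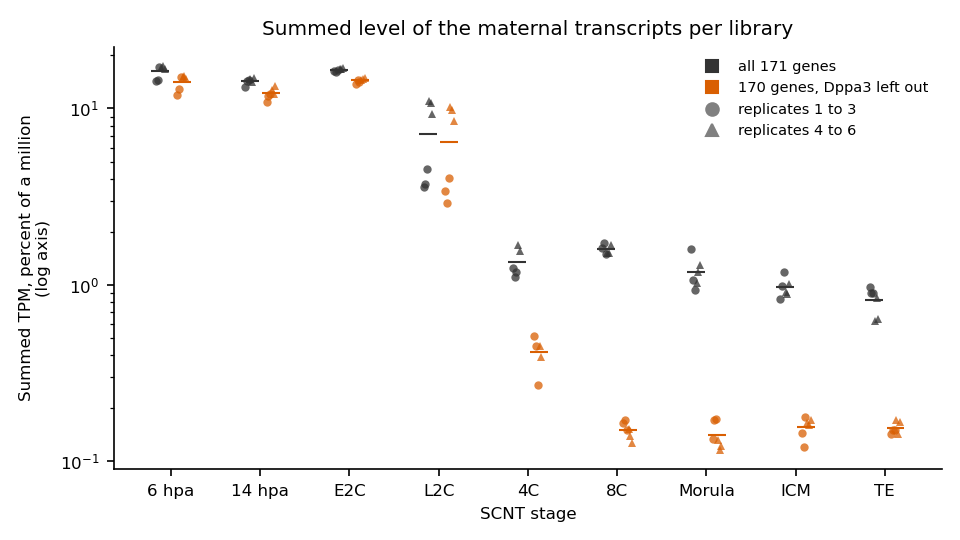
Summed TPM of the 171 members as a percent of the library (y axis, log), by NT stage (x axis), with and without Dppa3, where circles are replicates 1 to 3, triangles replicates 4 to 6 and bars group means. The sum is near 16% up to E2C, splits into 3 lower and 3 higher libraries at L2C, and from 4C on most of what is left is Dppa3.

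The median member kept 83.1% of its 6 hpa mean at 14 hpa, 79.4% at E2C, 36.9% at L2C, 2.94% at 4C and 0.361% at 8C. At 4C, 169 of 171 members were under 50% of their 6 hpa mean and 147 were under 10% of it. At 8C, 112 members were under 1% and 68 had a mean under 1 TPM, while 27 were still at 10 TPM or more.

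The way down was not even. At 14 hpa 57 members, and at E2C 64 members, had means above their 6 hpa mean, 12 and 9 of them by at least 2-fold. The largest of these gains was that of A730082K24Rik, which had a lowest, median and highest level of 93.3, 104 and 123 TPM at 6 hpa, 411, 555 and 655 TPM at 14 hpa, and 500.2, 567 and 615 TPM at E2C. All its libraries at 14 hpa and E2C were higher than all at 6 hpa, and its 4C values of 8.37, 7.91, 1.10, 4.09 and 8.14 TPM were lower than all of them. Its 6 hpa mean of 105.2 TPM lay close to the limit of 100 TPM that chose the members. Counts of means above 6 hpa were not made over all genes, so those given do not set the members apart.

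Each member was placed by the first stage from which its mean stayed under 50% of the 6 hpa mean through 8C. By this measure 21 members were lost at 14 hpa, 22 at E2C, 64 at L2C, 59 at 4C and 2 at 8C, and 3 were not lost. With 10% in place of 50%, the counts were 1 at 14 hpa (H1foo), 1 at E2C (Zar1), 27 at L2C, 118 at 4C and 10 at 8C, and 14 members never stayed under 10%.

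**Figure D2:**
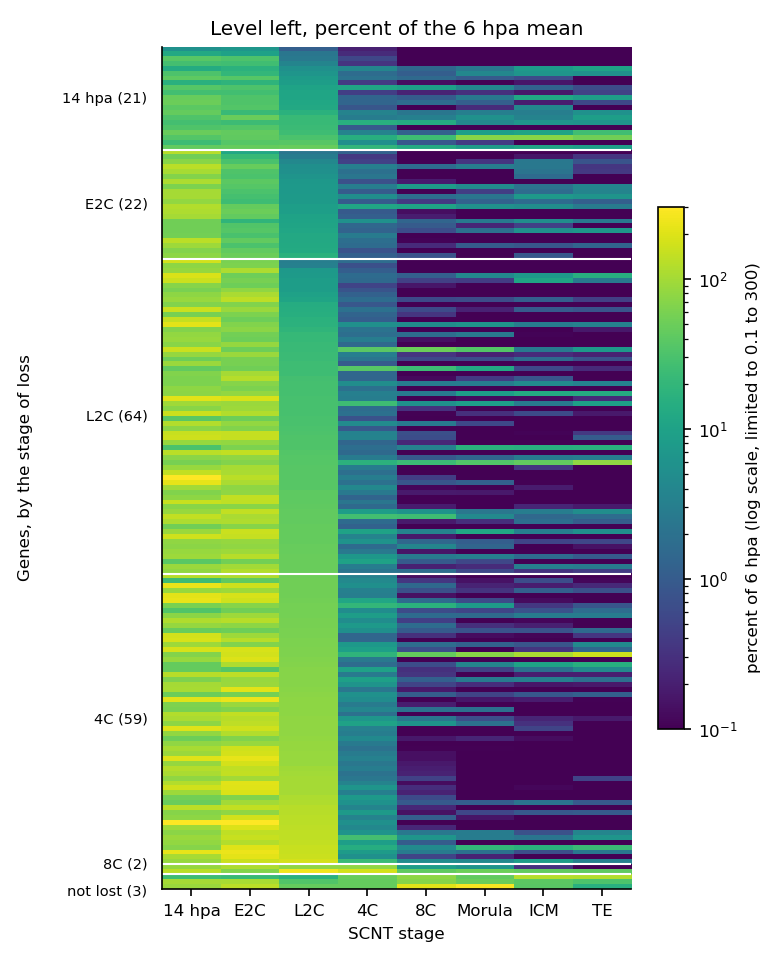
Percent of the 6 hpa mean left (colour, log scale) for each of the 171 members (lines, grouped by stage of loss with the number in brackets and ordered by the level at L2C) at each later NT stage (columns). The 59 members lost at 4C stay bright through L2C, all but a few lines are dark from 8C on, and the bright lines at 8C include the 3 members not lost.

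Of the 21 members lost by 14 hpa, H1foo had a lowest, median and highest level of 2280, 6552 and 7456 TPM at 6 hpa and 70.7, 370 and 585 TPM at 14 hpa. Every 14 hpa library was below every 6 hpa library, and the mean stood at 5.72% of its start. Zar1, whose protein binds maternal messages, went from 121, 301 and 377 TPM to 9.71, 33.4 and 62.4 TPM, again with no overlap. Gdf9, a growth factor that the oocyte secretes to its granulosa cells, went from 255, 907 and 1158 TPM to 13.0, 118 and 272 TPM, and the highest 14 hpa library overlapped the lowest 6 hpa library. Aurkc, a meiotic Aurora kinase, and Dcp1a, a decapping factor, kept 41.3% and 31.9% at 14 hpa. D6Ertd527e and Oas1d, the latter from a family related to the 2′,5′-oligoadenylate synthetases, kept means of 838 TPM of 3068 TPM and 617 TPM of 1668 TPM. The group's median was 33.4% at 14 hpa and 32.5% at E2C, then 11.2% at L2C.

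The 22 members lost at E2C had kept a median of 87.9% at 14 hpa and had 33.6% at E2C. Those with the highest start were Gm15698, C87499, Oas1e and Oosp2. Oas1e went from a lowest, median and highest level of 303, 934 and 1214 TPM at 6 hpa to 81.6, 593 and 1227 TPM at 14 hpa and 39.5, 263 and 442 TPM at E2C. Its libraries spread widely at each of these stages and overlapped. Oosp2, an oocyte-secreted protein gene, was tighter, with 709, 779 and 827 TPM at 6 hpa, 789, 1033 and 1150 TPM at 14 hpa and 258, 354 and 420 TPM at E2C, where every library was below all earlier ones.

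The 64 members lost at L2C kept a median of 85.2% at 14 hpa and 82.3% at E2C, and 29.7% at L2C. Their most abundant members were Tcl1, a coactivator of AKT kinase, E330034G19Rik, Btg4 and Bcl2l10. Btg4 had a lowest, median and highest level of 4166, 5770 and 7114 TPM at 6 hpa, 4571, 5678 and 7016 TPM at E2C and 253, 1245 and 2947 TPM at L2C. At 4C its libraries held 127, 61.9, 20.004, 112 and 88.0 TPM, and at 8C 0.102 to 5.82 TPM. The 6 hpa and E2C libraries overlapped throughout, and all L2C and 4C libraries were lower.

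The 59 members lost at 4C had a median of 89.5% at 14 hpa, 134.9% at E2C, 78.6% at L2C and 4.91% at 4C. A mean of at least 50% at L2C is part of how they were placed. Omt2b and Omt2a, Tcl1b1 and Zbed3 led them by level. Omt2b had 15266, 16805 and 19114 TPM at 6 hpa, 18948, 20241 and 33187 TPM at E2C, and 6187, 16445 and 25938 TPM at L2C. Its L2C libraries lay on both sides of the 6 hpa range. The 4C libraries held 713, 583, 345, 502 and 423 TPM, all far below it. Zbed3, which is linked to the subcortical maternal complex, stood at 208% of its 6 hpa mean at E2C and at 2.38% at 4C.

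At the 3′ end of messages, the cytoplasmic polyadenylation element (TTTTAT or TTTTAAT) is bound by CPEB proteins in oocytes, and stored messages that carry it have their tails lengthened on activation. A run of these letters was sought on the transcript strand in the last 100 bases of the reference transcript for 154 of the 171 members. It was found in 35.7% of members, 29.2% of the 778 other genes at 100 TPM or more at 6 hpa and 17.0% of all 19917 transcript ends. By stage of loss the share was 47.6% at 14 hpa, 33.3% at E2C, 26.2% at L2C and 45.7% at 4C. The run ATTTA was found in 29.9%, 28.9% and 21.4% of the same 3 sets, and in 47.6%, 47.6%, 24.6% and 21.7% of members by stage of loss. These are descriptions of letters, and the binding of a protein was not measured. Stretches of 30 bases around the first TTTTAT or TTTTAAT run are given here for a choice of members lost at different stages. The run is in capitals, 5′ to 3′, from GENCODE transcripts of GRCm38. The search found none in Zar1 or Tcl1b1.
H1foo: gattctgaagcTTTTATtgtctaataagct
Gdf9: gagtgctgtggTTTTATgtgacggaagaat
Btg4: gataaatccctTTTTATgtctttttaaaag
Bcl2l10: ccttaatacatTTTTAATaacttcaaattc
Wee2: tttttaacataTTTTAATccagatcattgt
Omt2b: gatTTTTATtattgccatgtccagctttta
H1foo and Gdf9 were lost by 14 hpa, Btg4 and Bcl2l10 at L2C, and Wee2 and Omt2b at 4C, so the run stands in members of early and of late loss.

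Steps between neighbouring stages were tested with limma over all 11867 genes with a mean of at least 1 TPM in the NT libraries, on log2(TPM + 1). Calls needed 2-fold or more and an adjusted p (Benjamini and Hochberg) below 0.05. From 14 hpa to E2C, 19 members fell and 1 rose, that is 19 of 171 beside 3.05% of all genes tested that fell and 2.78% that rose. From E2C to L2C, 108 members fell and 1 rose, beside 11.2% and 23.7% of all genes. From L2C to 4C, 151 members fell and 1 rose, beside 26.6% and 11.8%. The libraries did not overlap in 9, 77 and 119 of the members that fell. The same share over all genes was not computed, so these counts do not set the members apart.

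The median log2 fold change of the members was 0.12, −1.43 and −3.12 for these 3 steps, beside 0.12, 0.26 and −0.33 over all genes tested. Among the other 824 genes at 100 TPM or more at 6 hpa, 92 fell at the first step, 268 at the second and 315 at the third, or 11.2%, 32.5% and 38.2%. Read by member, 84 fell at L2C and again at 4C, 54 fell at 4C only, 13 fell at all 3 steps, 6 fell at L2C only and 8 at no step. Scaling moved the median of all genes in the second step by 0.277 when TPM was rescaled over annotated genes and by −0.281 under quantile normalization, in the third step by −0.242 and 0.415, and in the first by −0.124 under quantile normalization. At L2C and 4C each of these shifts is smaller than the members' median change.

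At the step to E2C the members with the largest falls and no overlap were Gm813, A430033K04Rik and Ooep. Gm813 went from a lowest, median and highest level of 124, 253 and 317 TPM at 14 hpa to 7.35, 26.1 and 38.0 TPM, with a log2 fold change of −3.41 ± 0.39 (SE) and an adjusted p of 1.62e-08 in limma. Ooep, a subunit of the subcortical maternal complex of the egg, had 317, 554 and 918 TPM at 14 hpa, beside 248 to 404 TPM at 6 hpa, and 74.4, 150 and 248 TPM at E2C (log2 fold change −1.94 ± 0.36, adjusted p = 0.000217 in limma). Its replicates 4 to 6 at 14 hpa lay above all 6 hpa libraries and replicates 1 to 3 within their range, and all E2C libraries were below all of 14 hpa. A430033K04Rik fell by 2.17 ± 0.53 on the log2 scale (adjusted p = 0.00562 in limma), a call that was lost with a pseudocount of 0.1 and in replicates 4 to 6 alone. Gm839 was the 1 member that rose in the main fit, from 117, 243 and 361 TPM to 429, 462 and 723 TPM (1.10 ± 0.34, adjusted p = 0.0339 in limma), and the same alternatives ended its call. More members rose with the replicate block, with only the groups compared and in replicates 1 to 3 alone. Whether replicate numbers pair samples at this step is undecided.

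At the step to L2C the largest falls without overlap were those of AU022751, Rfpl4 and E330021D16Rik, with log2 fold changes of −4.46 ± 0.69, −4.45 ± 0.47 and −4.27 ± 0.43 and adjusted p of 7.73e-07, 9.79e-11 and 1.88e-11 in limma. Rfpl4, an oocyte RING finger protein, went from 2704, 3362 and 3608 TPM at E2C to 41.1, 181 and 501 TPM at L2C. All L2C libraries were far below the lowest E2C library. Tcl1 went from 12380, 17464 and 18362 TPM to 510, 2993 and 8303 TPM (−2.97 ± 0.61, adjusted p = 8.97e-05 in limma).

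Sycp3, a core protein of the synaptonemal complex that pairs meiotic chromosomes, ran the other way at this step. It went from 53.7, 71.1 and 83.1 TPM at E2C to 173, 249 and 403 TPM at L2C, with no overlap (1.88 ± 0.48, adjusted p = 0.00143 in limma). At 4C its libraries held 167, 335, 375, 22.4 and 37.5 TPM, with replicates 1 to 3 high and the other two low. It was still at 10.5 to 82.8 TPM at 8C and at 14.2 to 78.0 TPM in ICM, so it is among the members that never stayed under 10%.

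At the step to 4C the largest falls without overlap were those of Wee2, Oosp1 and AA545190, with log2 fold changes of −5.46 ± 0.33, −5.44 ± 0.51 and −5.41 ± 0.35 and adjusted p of 5.90e-19, 7.75e-13 and 7.87e-18 in limma. Wee2, the oocyte kinase that restrains CDK1, had 218, 231 and 257 TPM at 6 hpa and 97.5, 246 and 392 TPM at L2C. Its 4C libraries held 6.84, 6.48, 0.188, 3.48 and 7.10 TPM. The L2C libraries spread around the starting level, and all 4C libraries were far below it.

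Sall4, a zinc finger factor of pluripotent cells, was the 1 member that rose at this step. It had 186, 278 and 315 TPM at 6 hpa, 31.7, 61.7 and 100.3 TPM at 14 hpa and 8.35, 44.2 and 68.5 TPM at L2C, and 69.7, 69.5, 88.7, 213 and 173 TPM at 4C (1.60 ± 0.39, adjusted p = 0.000703 in limma). The 4C libraries all lay above the L2C libraries, and at 8C the range of 127 to 255 TPM overlapped that of 6 hpa. Dppa3 fell from 15859, 21809 and 25144 TPM at E2C to 1692, 8198 and 10250 TPM at L2C (−1.82 ± 0.23, adjusted p = 5.35e-09 in limma). It then had 6549 to 12246 TPM at 4C and 13433 to 15651 TPM at 8C, and the 8C range lay wholly above the 4C range. Cth, which makes cysteine from cystathionine, had 18.9 to 92.4 TPM at L2C and 167 to 385 TPM at 8C, above its 6 hpa range of 94.8 to 137 TPM.

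The replicates of L2C split in the members as well. In 161 of 171 members the share left at L2C was smaller in replicates 1 to 3 than in replicates 4 to 6, with medians of 19.8% and 50.8%. The same count over all genes was not made. Annotated genes together took 30.4% to 51.8% of TPM in the former and 57.8% to 61.8% in the latter. Of the TPM of annotated genes alone, the members took a mean of 9.24% and 17.3%. The summed share was 3.57% to 4.53% in the former and 9.28% to 11.01% in the latter. Btg4 had 298, 253 and 587.5 TPM in replicates 1, 2 and 3 and 2947, 2437 and 1903 TPM in replicates 4, 5 and 6. By stage of loss the medians were 7.17% and 16.4% (14 hpa), 6.46% and 11% (E2C), 16.2% and 40.2% (L2C), and 51.7% and 104% (4C). Placed from replicates 1 to 3 alone, 34 members were lost at 14 hpa, 24 at E2C, 76 at L2C and 30 at 4C, and from replicates 4 to 6 alone 14, 15, 52 and 85. The number placed at 4C thus differed between the sets. The labels name no batch, and the part of library composition, which also differed between these sets, was not tested.

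**Figure D3:**
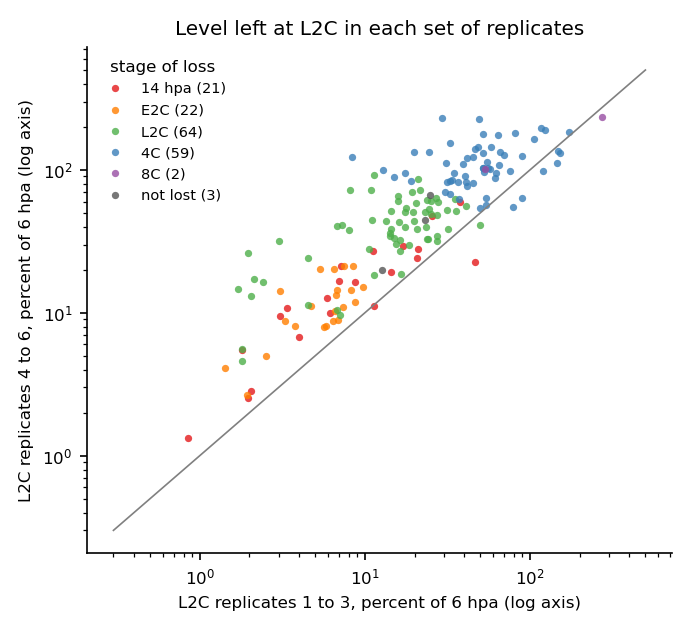
Percent of the 6 hpa mean left at L2C for each member, mean of replicates 1 to 3 (x axis) against mean of replicates 4 to 6 (y axis), both on log axes, coloured by stage of loss, with the line of equality. Of 171 points, 161 lie above the line, and the same count over all genes was not made.

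By role, the members of lists assembled from general knowledge, with earlier results of these data known, fell as follows at the 3 steps. Of 5 members for egg surface and secreted factors, 1, 3 and 5 fell. Bmp15, the partner of Gdf9, fell at L2C (−1.13 ± 0.40, adjusted p = 0.0193 in limma, with overlap) and at 4C (−5.14 ± 0.42, adjusted p = 7.76e-15 in limma). Of the 14 others of that list tested, 1, 3 and 8 fell and 0, 2 and 2 rose. Of 5 members for storage, translation and decay of messages (Btg4, Zar1, Dazl, Papd7 and Dcp1a), 0, 4 and 5 fell, while of 32 others 2, 8 and 14 fell and 0, 6 and 0 rose. Dazl, a translational activator of the germ line, fell by 1.37 ± 0.29 and by 3.36 ± 0.30 on the log2 scale at L2C and 4C (adjusted p = 0.000145 and 3.29e-13 in limma).

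Of 4 members for oocyte chromatin (H1foo, Npm2, Dppa3 and Uhrf1), 0, 3 and 3 fell, while of 22 others 4, 2 and 6 fell and 0, 5 and 3 rose. Npm2, the histone chaperone nucleoplasmin, stood at 118% of its start at 14 hpa, 30.3% at L2C and 2.74% at 8C. Uhrf1, which brings DNMT1 to replicated DNA, was at 46.1%, 11.2% and 1.02% at these stages. Of 3 meiotic and cell cycle members (Wee2, Aurkc and Sycp3), 0, 1 and 2 fell, and Sycp3 rose at L2C. Of 36 others of that list, 3, 10 and 11 fell and 0, 7 and 2 rose. Of 3 ubiquitin ligase members (Rfpl4, Siah2 and Trim61), 0, 2 and 3 fell, while of 23 others 1, 4 and 6 fell and 1, 4 and 1 rose. Siah2 stood at 101% of its start at L2C and at 2.40% at 4C, whereas Rfpl4 was already at 7.71% at L2C. Both members of the subcortical maternal complex list fell at L2C and at 4C, Ooep also at E2C, and of 6 others 1, 2 and 4 fell and 0 rose at any step. Zfp57 fell at all 3 steps and Bcl2l10 at the latter pair. Of Tcstv1 and Tcstv3, genes better known for expression at the 2-cell stage, 0, 1 and 1 fell, while of the 13 others of that list 0, 0 and 5 fell and 2, 7 and 1 rose.

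All 6 genes of the Tcl1 family were members, and at the 3 steps 0, 5 and 6 of them fell. The family lies in tandem on chr12:105147033-105222737 (mm10). At E2C the Tcl1b1 to Tcl1b5 genes stood at 179% to 197% of their 6 hpa means. At L2C they stood at 64.9% to 135%, and by these means all were lost at 4C. Tcl1, at the end of the array, was at 124% at E2C and 27.5% at L2C. The sets of replicates differed at L2C. In replicates 1 to 3 Tcl1b1 to Tcl1b4 had 12.85% to 32.9% left and Tcl1b5 63.6%, while in replicates 4 to 6 all had 99.5% to 174%. Tcl1 had 6.77% and 40.4%. The placement of Tcl1b1 to Tcl1b4 at 4C thus rests on replicates 4 to 6. The copies resemble each other closely, and how reads were shared among them is uncertain.

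Of the 171 members, 22 lay in 6 clusters of at least 3 members within 200 kb of one another. They are the Tcl1 array (lost at 4C but for Tcl1), the Oas1c, Oas1d, Oas1e and Oas1h genes (chr5:120786312-120921647), Oosp1, Oosp2 and Oosp3 (chr19:11647284-11711858), Gm13023, Gm13084 and Gm13103 (chr4:143789334-143853637), Omt2a, Omt2b and Ooep (chr9:78311972-78378588), and Xlr3a, Xlr4b and Xlr4c (chrX:73086293-73243130). These are 12.9% of the members, beside 10.2% of the 824 other genes at 100 TPM or more at 6 hpa. In pairs or larger groups lay 17.5% of the members and 32.5% of those other genes. The sets differ in size, and genes of a larger set have more neighbours of their set within reach. The other genes also include those left out of the members by name. These shares therefore do not tell how clustered the members are. Most of the 6 clusters are families of near copies. The stages of loss given for the clusters use the means of all replicates, which split at L2C. Gm13023, Gm13084 and Gm13103 were all lost at L2C. In the other clusters neighbours differed: Oosp2 was lost at E2C and Oosp1 and Oosp3 at L2C, Ooep at L2C and its neighbours Omt2a and Omt2b at 4C, Oas1d at 14 hpa, Oas1e and Oas1h at E2C and Oas1c at L2C, and Xlr3a at 4C and Xlr4b and Xlr4c at L2C.

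Promoters from 250 bases before to 50 bases after the start were available from RefSeq (GRCm38.p6) for 138 members and were searched on both strands. Where a gene had several listed starts, the window with the lowest coordinate was used. The start used in oocytes was not determined. The E-box CACCTG, one form of CANNTG, was present in 54 of 138 members (39.1%), 20% of 27025 promoters and 15.8% of 645 other genes at 100 TPM or more at 6 hpa. By stage of loss it was present in 38.9% at 14 hpa, 15.8% at E2C, 29.6% at L2C and 58.7% at 4C, the last being 27 of 46. The placement at 4C differed between the sets of replicates. In replicates 1 to 3, Tcl1b2 and Tcl1b1 had 12.85% and 19.8% left at L2C, and Omt2a had 80.8%. Of these 27, 7 share a part of their window with another, so they are not all separate observations. E-boxes of all forms (CANNTG) were in 84.1% of members and 72.3% of all promoters. Shown are 3 windows of members lost at 4C, with CACCTG or its complement CAGGTG in capitals, 5′ to 3′ in the direction of the gene. Tcl1b2 and Tcl1b1 show the shared window of the array, and Omt2a is an abundant member from another locus.
Tcl1b2, chr12:105146769-105147068, forward strand: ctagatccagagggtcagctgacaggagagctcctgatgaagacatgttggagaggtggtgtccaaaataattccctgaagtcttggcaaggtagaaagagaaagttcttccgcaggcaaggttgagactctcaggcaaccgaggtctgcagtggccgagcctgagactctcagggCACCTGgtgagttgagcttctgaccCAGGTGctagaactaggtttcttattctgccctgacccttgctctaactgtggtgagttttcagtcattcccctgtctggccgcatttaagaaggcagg
Tcl1b1, chr12:105159454-105159753, forward strand: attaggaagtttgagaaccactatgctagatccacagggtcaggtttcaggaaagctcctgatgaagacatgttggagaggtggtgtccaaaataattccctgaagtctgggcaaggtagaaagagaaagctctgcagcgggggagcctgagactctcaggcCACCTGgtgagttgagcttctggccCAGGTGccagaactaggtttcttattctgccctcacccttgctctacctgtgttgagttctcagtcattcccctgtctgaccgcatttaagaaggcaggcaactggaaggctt
Omt2a, chr9:78313999-78314298, reverse strand: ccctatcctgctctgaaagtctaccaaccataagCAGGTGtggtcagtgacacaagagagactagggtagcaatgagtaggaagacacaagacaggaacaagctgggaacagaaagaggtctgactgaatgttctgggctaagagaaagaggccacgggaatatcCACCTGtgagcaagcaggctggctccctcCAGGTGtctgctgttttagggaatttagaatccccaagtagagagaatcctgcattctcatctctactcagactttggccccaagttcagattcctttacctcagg
The first pair carry the same spaced couple of runs a little upstream of the start, and Omt2a carries 3 runs.

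The letters TATAAA, the core of a TATA box, were in 16 of 138 members (11.6%), 14.1% of all promoters and 5.74% of the 645 other abundant genes. Of these, 14 belonged to the 54 members lost at L2C (25.9%), beside 2.17% of those lost at 4C. In 6 of the 14 the match began 20 to 35 bases before the start, where a TATA box usually lies. For this pattern 2 windows are shown, with the match in capitals: C86187, the most abundant of the 14, and Gm13103 from the chromosome 4 cluster.
C86187, chr7:46975862-46976161, reverse strand: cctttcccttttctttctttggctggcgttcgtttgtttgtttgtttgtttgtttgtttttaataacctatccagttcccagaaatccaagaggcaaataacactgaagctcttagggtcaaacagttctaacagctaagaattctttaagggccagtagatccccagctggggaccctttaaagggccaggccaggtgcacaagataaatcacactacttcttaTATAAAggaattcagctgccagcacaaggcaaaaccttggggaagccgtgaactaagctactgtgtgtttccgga
Gm13103, chr4:143846247-143846546, forward strand: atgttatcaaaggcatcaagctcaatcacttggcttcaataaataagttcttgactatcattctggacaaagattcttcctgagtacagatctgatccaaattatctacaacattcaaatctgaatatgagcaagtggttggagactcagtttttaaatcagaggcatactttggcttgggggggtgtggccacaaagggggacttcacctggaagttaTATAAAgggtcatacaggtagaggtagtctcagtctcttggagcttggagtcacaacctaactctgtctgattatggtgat
The runs TAATTG and TAATTA, cores of homeobox binding sites, were in 10.1% and 7.25% of members and in 8.13% and 5.40% of all promoters. A match of letters is no evidence of binding, and genes of 1 family share ancestry.

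In the cloned blastocyst, 11 members were back, counted where the ICM or TE mean was at least 10 TPM and at least 5 times the 8C mean. They were Tcl1, Zfp57, Smagp, Ooep, Fam107b, Gipc2, Rbm38, Oas1e, Nudt7, Uhrf1 and Dclre1a. They are 6.43% of the members, and by the same measure 7.52% of the 824 other genes at 100 TPM or more at 6 hpa and 5.31% of all annotated genes were back. The 8C mean was part of the choice of the members, so this count is a description. None reached its 6 hpa mean. The larger of the 2 blastocyst means stood at 0.864% of it for Tcl1, 2.45% for Oas1e and 3.71% for Nudt7, and at 10.3% (Dclre1a) to 26.0% (Fam107b) for the others. A further set had not gone as low at 8C and so was not counted: Dusp14, a dual-specificity phosphatase, was at 44.6% of its 6 hpa mean at 8C and at 107% and 162% in ICM and TE, Mcm2, a subunit of the replicative helicase, at 25.1%, 73.2% and 52.7%, and Cox10 at 23.7%, 43.8% and 80.2%. Blastocyst libraries were tested against the morula, which the choice of members did not use. Of all members, 18 fell and 10 rose in ICM, beside 15.0% and 8.96% of all genes. In TE 17 fell and 12 rose, beside 10.8% and 11.0%. All members passed the filter through their level at 6 hpa. In morula, ICM and TE, 92, 83 and 91 of the 171 members had means under 1 TPM. Many could thus hardly be called, so these shares do not compare the members with all genes. Under quantile normalization the split in ICM was 10 lower and 29 higher. The sets of replicates differed here: 5 members rose in ICM and 6 in TE in replicates 1 to 3 alone, and 33 and 25 in replicates 4 to 6 alone.

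Of the 11 members, 3 were higher in ICM than in morula (Oas1e, Zfp57 and Uhrf1) and 5 were higher in TE (Nudt7, Zfp57, Smagp, Ooep and Dclre1a). The other 4, Tcl1, Fam107b, Gipc2 and Rbm38, were called higher than morula in neither lineage, and their morula means were 50.8, 14.9, 22.9 and 27.9 TPM. Tcl1 was lower in TE than in morula (−1.75 ± 0.61, adjusted p = 0.0285 in limma). Zfp57, which guards methylation at imprinted loci, was called in both. It had a lowest, median and highest level of 381, 598 and 649 TPM at 6 hpa and 0.386, 2.18 and 5.69 TPM at 8C. In morula it had 1.28, 2.38 and 4.14 TPM, in ICM 18.2, 70.7 and 107 TPM, and in TE 7.70, 15.0 and 19.99 TPM. Every ICM and TE library lay above every morula library, with log2 fold changes of 4.00 ± 0.44 and 2.22 ± 0.44 (adjusted p = 5.88e-10 and 0.000111 in limma). Ooep rose in TE, from 9.11, 13.0 and 15.4 TPM in morula to 34.9, 45.0 and 67.5 TPM (1.76 ± 0.36, adjusted p = 0.000177 in limma). In ICM it had 10.8, 26.5 and 34.9 TPM and was not called. Smagp, a small transmembrane glycoprotein of cell contacts, had 3.93, 9.46 and 27.7 TPM in morula and 33.0, 49.6 and 62.3 TPM in TE (2.16 ± 0.64, adjusted p = 0.00972 in limma).

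Other members fell further on the way to the blastocyst. Cth went from 170, 271 and 505 TPM in morula to 8.80, 44.5 and 69.5 TPM in ICM and 2.97, 18.4 and 40.8 TPM in TE, with log2 fold changes of −2.96 ± 0.46 and −4.37 ± 0.46 (adjusted p = 1.89e-06 and 1.68e-10 in limma). Rgn, the calcium-binding protein regucalcin, fell by 3.75 ± 0.46 in ICM on the log2 scale (adjusted p = 1.10e-08 in limma), from 23.9, 35.1 and 66.5 TPM to 0, 2.54 and 9.04 TPM. Rln3, a relaxin peptide, fell by 2.75 ± 0.57 and 3.02 ± 0.57 in ICM and TE (adjusted p = 0.000209 and 5.43e-05 in limma), and Dazl fell in TE by 2.98 ± 0.29 (adjusted p = 1.41e-11 in limma). Sall4 rose in ICM from 88.9, 116 and 139 TPM to 164, 298 and 555 TPM (1.34 ± 0.37, adjusted p = 0.00514 in limma), a call lost in replicates 4 to 6 alone. Wdr76 rose in ICM (1.42 ± 0.38, adjusted p = 0.00342 in limma), a call lost with the replicate block, with only the groups compared and in replicates 1 to 3 alone.

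**Figure D4:**
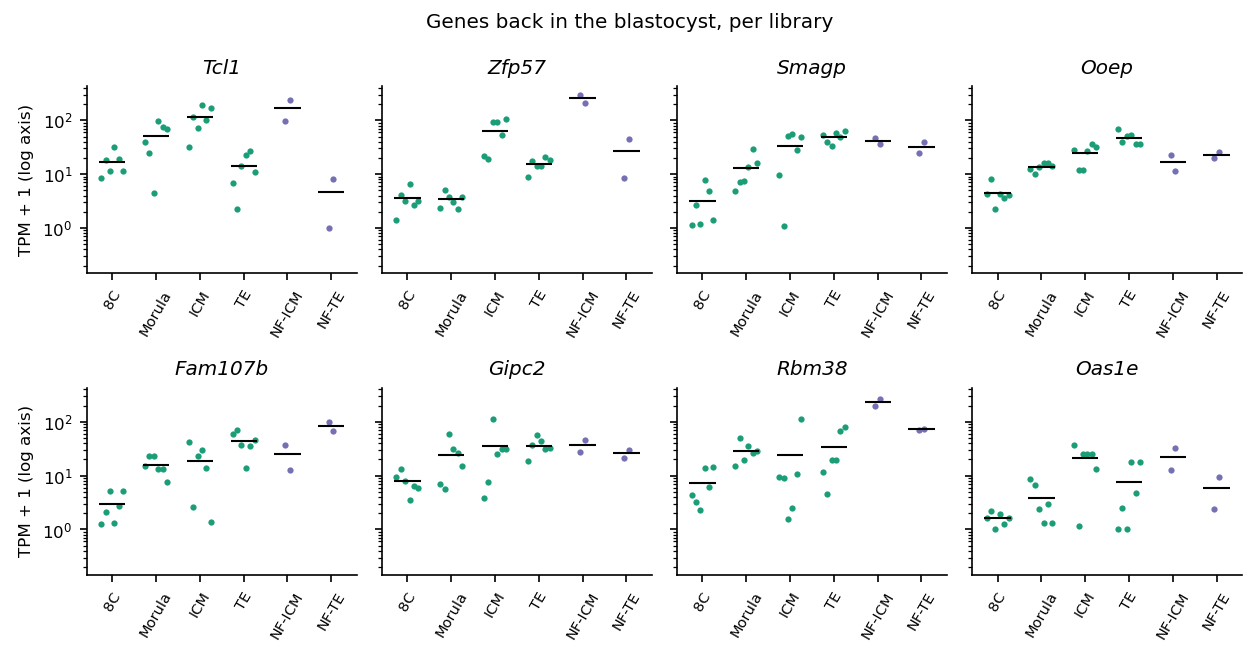
TPM + 1 (y axis, log) of the 8 members back in the blastocyst with the highest level there, one panel per gene, one point per library, for 8C, morula, ICM and TE of clones (green) and ICM and TE of fertilised controls (purple), with group means as bars. Zfp57 is low at 8C and morula and higher in all cloned ICM and TE libraries, and Tcl1 is higher in ICM than in TE.

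Between ICM and TE of cloned blastocysts, 6 members were lower and 5 higher in ICM, beside 3.87% and 1.47% of all genes. In these lineages 83 and 91 members had means under 1 TPM, so the shares do not compare the members with all genes. TE markers (19 genes) summed to 2412 to 9243 TPM in the cloned ICM libraries and to 6604 to 18039 TPM in the cloned TE libraries, and replicates 4 and 5 of ICM, at 7365 and 9243 TPM, lay above the lowest TE library. The part of this in the comparison was not tested. Tcl1 had 30.4, 107 and 195 TPM in ICM and 1.24, 11.7 and 26.1 TPM in TE, with no overlap (3.19 ± 0.61, adjusted p = 0.000522 in limma, and 0.0261 with the replicate block). Tesc, the calcium-binding protein tescalcin, had 0, 3.65 and 11.7 TPM in ICM and 12.2, 22.7 and 42.2 TPM in TE (−2.58 ± 0.41, adjusted p = 3.50e-05 in limma). With the replicate block the adjusted p of Tesc was 0.113, and over all members 0 were lower and 1 was higher in limma, with 10 lower and 6 higher at an unadjusted p under 0.05. Under quantile normalization 1 was lower and 7 were higher.

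The fertilised blastocysts were a separate experiment, and their levels are set beside those of the clones without a test. The members summed to 0.614% of TPM in control ICM and 0.471% in control TE, and to 0.969% and 0.815% in the cloned ICM and TE. In control ICM, Dppa3 had 2252 and 3380 TPM, and the cloned ICM had a lowest, median and highest level of 6854, 7932 and 10097 TPM. Xlr3a, an X-linked member chosen after its values were seen, had 168 and 101 TPM in control ICM and 178 and 126 TPM in control TE. In cloned ICM it had 0, 0.367 and 2.05 TPM and in cloned TE 0, 0.286 and 8.78 TPM. All 6 cloned ICM libraries were thus low for it and both fertilised ones high. The sets also differed in strain, the sex of the fertilised embryos is not given, and the part of either was not tested. Control replicate 2 of ICM also held 16.0 TPM of H1foo, 45.8 TPM of Zbed3 and 13.7 TPM of Bcl2l10, where replicate 1 had 0, 0.744 and 0 TPM.

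In the fertilised ICM libraries the same TE markers summed to 17972 TPM in control replicate 1 and 958 TPM in replicate 2, to 3142 and 6657 TPM with the Max morpholino and to 12950 and 9362 TPM with the Mcrs1 morpholino, beside 16969 to 23234 TPM in the fertilised TE libraries. Control replicate 1 of ICM thus carried TE markers at the level of TE. The part of this in the results on fertilised embryos was not tested.

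In the fertilised controls, 2 members were lower and 4 higher in ICM than in TE, beside 1.20% and 1.72% of the 11219 genes tested, of which 86 were members. Tcl1 had 97.7 and 235 TPM in ICM and 0 and 7.12 TPM in TE (5.74 ± 0.81, adjusted p = 0.0134 in limma). Zfp57 had 300.3 and 209 TPM in ICM and 7.48 and 43.9 TPM in TE (3.69 ± 0.73, adjusted p = 0.0308 in limma). In the clones both were called higher in ICM as well, Zfp57 with overlap (1.78 ± 0.44, adjusted p = 0.00855 in limma). With the replicate block, or with only the groups compared, Tcl1 was the 1 member called higher, so the call of Zfp57 was lost.

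The morpholinos against Max, the dimer partner of MYC and MGA, and Mcrs1, a chromatin complex subunit, asked what these factors do in the blastocyst. Max itself had 38.0 and 8.42 TPM in control ICM and 6.82 and 0.443 TPM after its morpholino, and in TE 34.5 and 28.5 TPM and 16.3 and 8.68 TPM. Mcrs1 had 253 and 310 TPM in control ICM and 86.8 and 73.4 TPM after its morpholino, and in TE 219 and 294 TPM and 41.1 and 45.5 TPM. All were lower than their controls, although Max in ICM differed little between control replicate 2 and treated replicate 1. The part of the unequal morpholino concentrations in these comparisons was not tested.

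With the Max morpholino in ICM, 13 of the 86 members fell and 11 rose, beside 15.1% and 8.65% of all genes. Without control replicate 1 of ICM the counts were 22 and 13, and without single libraries they ran from 7 to 22 and from 5 to 13. Under quantile normalization 8 fell and 13 rose. The largest changes with no overlap were rises of Asz1, Plac8 and Rgn. Asz1, a germ cell protein of the piRNA pathway, had 1.71 and 4.55 TPM in control and 68.7 and 25.9 TPM after the morpholino (3.48 ± 0.73, adjusted p = 0.00663 in limma), a call lost without Max replicate 1. Rgn had 0.172 and 0.353 TPM and then 11.4 and 10.7 TPM (3.26 ± 0.61, adjusted p = 0.00422 in limma), called under all 11 alternatives. Plac8 had 0 and 2.81 TPM and then 38.5 and 8.56 TPM (3.32 ± 1.02, adjusted p = 0.0344 in limma), a call lost under 5 of 11.

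Dppa3 had 2252 and 3380 TPM in control ICM and 8924 and 12869 TPM after the Max morpholino (1.96 ± 0.26, adjusted p = 0.00105 in limma). Dazl and Ooep also rose (2.88 ± 0.77 and 2.28 ± 0.40, adjusted p = 0.0198 and 0.00294 in limma). Uhrf1 and Dcp1a fell by 1.96 ± 0.54 and 2.24 ± 0.48 on the log2 scale (adjusted p = 0.0228 and 0.00765 in limma). The counts in both directions lie near the shares of all genes.

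With the Mcrs1 morpholino in ICM, 5 members fell and 4 rose, beside 5.21% and 4.88% of all genes. Without control replicate 1 of ICM the counts were 17 and 9, under quantile normalization 4 and 6, and rescaled over annotated genes 9 and 4. It shares its control libraries with the Max comparison. Asz1 had 53.8 and 31.0 TPM (3.43 ± 0.73, adjusted p = 0.0172 in limma), Rgn 7.96 and 11.6 TPM (3.08 ± 0.61, adjusted p = 0.0134 in limma), and Dazl 20.05 and 7.81 TPM (2.997 ± 0.77, adjusted p = 0.0332 in limma). All 3 calls were lost when either Mcrs1 replicate was left out, and with only the ICM libraries in the fit limma called 0 members, with 13 lower and 11 higher at an unadjusted p under 0.05.

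In TE, 1 member fell and 1 rose with the Max morpholino, beside 1.45% and 1.04% of all genes, and 3 fell and 3 rose with the Mcrs1 morpholino, beside 3.31% and 1.77%. Under quantile normalization 1 fell and 3 rose with Mcrs1. With Max, Sycp3 had 43.8 and 17.0 TPM in control and 132 and 78.6 TPM after it (1.86 ± 0.44, adjusted p = 0.0485 in limma). With Mcrs1, Tcl1 had 0 and 7.12 TPM and then 32.3 and 31.7 TPM (3.53 ± 0.81, adjusted p = 0.0319 in limma), 2700049A03Rik fell by 2.08 ± 0.54 (adjusted p = 0.0460 in limma) and Cox6b2, a subunit of cytochrome c oxidase, rose by 1.95 ± 0.46 (adjusted p = 0.0348 in limma). Each of these calls was lost when single libraries were left out.

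Sall4, chosen after its values were seen, was lower in all 4 comparisons. It had 404 and 286 TPM in control ICM, 139.5 and 115 TPM with Max and 137 and 170.1 TPM with Mcrs1, and 368 and 306.5 TPM in control TE, 168 and 133.5 TPM with Max and 88.3 and 140.1 TPM with Mcrs1. No treated library overlapped its controls, and log2 fold changes were −1.42 ± 0.27, −1.15 ± 0.27, −1.16 ± 0.27 and −1.59 ± 0.27 (adjusted p = 0.00464, 0.0253, 0.0485 and 0.0137 in limma). Both morpholinos of a lineage share their controls, so these are not independent comparisons. The Max call in TE was lost with a pseudocount of 0.1, with no filter, with the replicate block and whenever 1 of the 4 TE libraries compared was left out. The Mcrs1 call in ICM was lost without either Mcrs1 library, and that in TE without control replicate 1 or either Mcrs1 library. In these 5 fits limma called 0 members lower, with 5 to 14 at an unadjusted p under 0.05. The difference of the effects between ICM and TE was tested as an interaction and called 0 members in limma for either morpholino, with 12 and 6 of 86 members at an unadjusted p under 0.05, beside 13.1% and 8.66% of all genes.

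**Figure D5:**
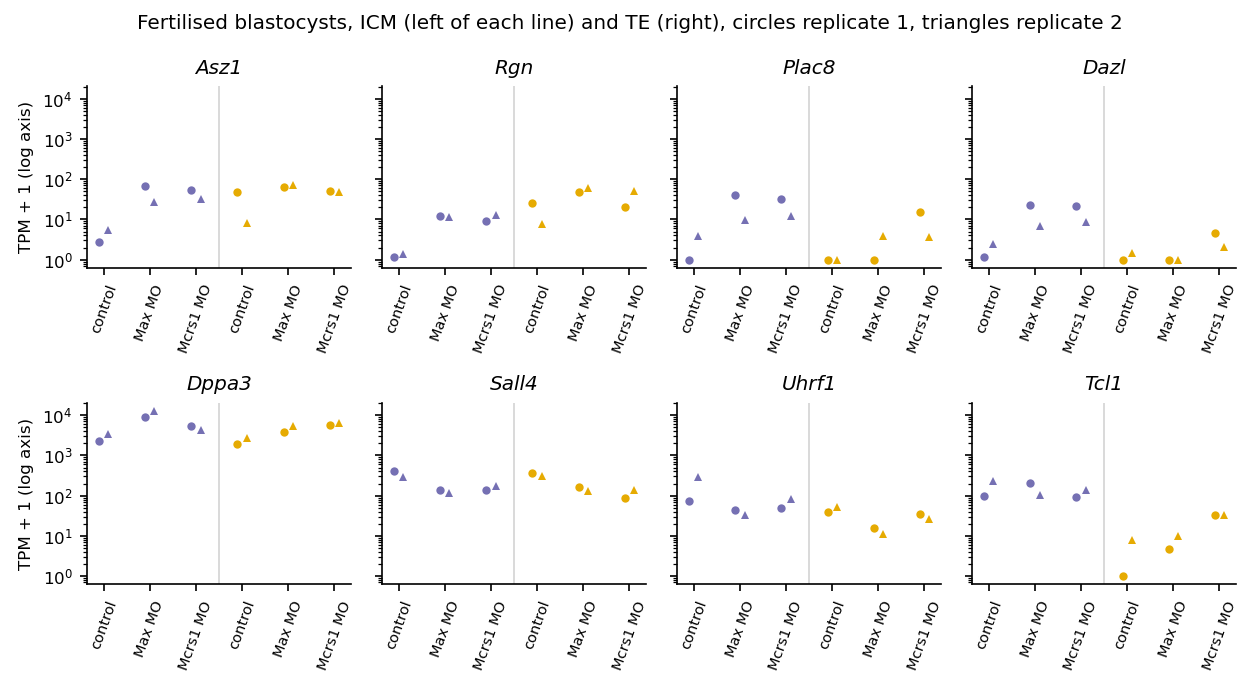
TPM + 1 (y axis, log) of 8 members (Asz1, Rgn, Plac8, Dazl, Dppa3, Sall4, Uhrf1 and Tcl1) in fertilised ICM (left of the line in each panel) and TE (right) with control, Max and Mcrs1 morpholinos, where circles are replicate 1 and triangles replicate 2. Asz1, Rgn and Dazl lie higher in both treated ICM groups, and Sall4 lies lower in all 4 treated groups.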

How the data were processed

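Smart-seq2 libraries of 68 samples were analysed, grouped by the labels. Per the labels, the authors trimmed reads with cutadapt 1.16, aligned them to mm10 with HISAT2 and assembled transcripts with StringTie; other versions are not given in the sources used here. Each deposited table lists TPM, a signal scaled by the authors within each library, together with FPKM and coverage; the deposited FPKM and coverage served only to obtain aligned gigabases, and read counts are not given. Entries without a gene name belong to loci assembled in 1 library and stayed out of tests, and TPM of entries with the same name was summed. Counting across strands and near copies is not stated.

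The members and gene lists were chosen with earlier results of these data known. Levels were compared as log2(TPM + 1) with limma 3.58.1 in R 4.3.3 (lmFit, eBayes with trend), over 53 NT or 12 NF libraries, genes with a mean of at least 1 TPM, and Benjamini-Hochberg adjustment. Fold changes on this scale understate those of low genes. Scripts were tested on simulated data. Motif counts and tables used Python 3.11.15 with pandas 2.3.3. Named genes were the 4 most abundant at 6 hpa per stage of loss, the 8 highest of those back in the blastocyst, the 3 largest changes each way per step without overlap, the 3 largest changes per morpholino comparison, and list members.

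For ICM against TE of clones, samples with the same replicate number deviated together (correlation of 0.131 to 0.300 in every pair), so the numbers count as pairing there, a reading taken from the data. Alternatives were another pseudocount, other filters, rescaled TPM, quantile normalization, the replicate block, fewer groups, each set of replicates alone and single fertilised libraries left out. For a 4C library whose file name carries 6, the label's replicate number 5 was taken.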

Additional observations from a re-analysis of the deposited data

Results flagged for a closer look

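The summed share of the members in each NT stage, and the 8 highest members back in the blastocyst in morula, ICM and TE, gave 33 sets of libraries that were checked for a library far from the others by Dixon's criterion. Of these, 2 held one, where chance gives about 1 in 20. Gipc2 had 111.7 TPM in replicate 3 of the cloned ICM, and the other 5 libraries had 2.76 to 30.2 TPM. Rbm38 had 111.8 TPM in replicate 6 of the cloned ICM, and the others had 0.586 to 9.75 TPM. Both genes were counted as back in the blastocyst. In TE, where neither gene had such a library, their means were 35.2 TPM (Gipc2) and 32.8 TPM (Rbm38), just above 5 times their 8C means of 6.78 and 6.41 TPM. Rbm38 had 3.55, 18.4 and 78.0 TPM in TE (lowest, median and highest).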

How the results depend on the processing

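Of 242 recomputed counts, 155 stayed within 1.5 times and 87 did not, and for 37 results on named genes 313 of 375 recomputed calls stayed, 62 were lost and 0 turned direction. The numbers of members lower at L2C and at 4C stayed within 1.5 times throughout. The cause of the changes below was not tested. With a pseudocount of 0.1 the members lower and higher at E2C were 8 and 0, those higher in ICM than in morula 23 and than in TE 10, those lower with Mcrs1 in ICM 3, and those with Max in TE 0 and 0. With no filter the counts, lower and higher, were 2 and 3 for ICM against TE, 8 and 7 (Max, ICM), 1 and 2 (Mcrs1, ICM), 0 and 0 (Max, TE) and 1 and 1 (Mcrs1, TE). With a mean of at least 5 TPM, 2 were higher at E2C. Rescaled over annotated genes, 2 were higher at E2C and 2 at L2C, 9 were lower with Mcrs1 in ICM and 0 were higher with Max in TE. Under quantile normalization 3 were higher at E2C, 10 lower and 29 higher in ICM than in morula, 1 lower in ICM than in TE, 8 lower with Max in ICM, 0 higher with Max in TE and 1 lower with Mcrs1 in TE. With the replicate block 13 were higher at E2C, and 9 were lower and 2 higher in ICM than in morula. That block left 0 lower and 1 higher in ICM than in TE, and 0 lower with Max in TE. Outside ICM against TE the lowest correlation of same-numbered samples was 0.0186 or less in each comparison of NT stages. The mean correlation was 0.197 for E2C against 14 hpa, beside 0.185 for ICM against TE, so whether the numbers pair samples at that step is undecided. With only the groups compared, 9 were higher at E2C, 10 lower and 2 higher in ICM than in morula, and 0 lower and 1 higher in ICM than in TE. With only the libraries of 1 lineage the counts were 5 and 5 (Max, ICM), 0 and 0 (Mcrs1, ICM), 5 and 4 (Max, TE) and 6 and 8 (Mcrs1, TE). In replicates 1 to 3 alone 10 were higher at E2C, 5 higher in ICM and 6 in TE than in morula, and losses were 34 at 14 hpa, 30 at 4C and 1 at 8C with 6 not lost; in replicates 4 to 6 alone 0 were higher at E2C, 3 at 4C, 33 in ICM and 25 in TE than in morula, and 9 in ICM than in TE. By group medians 1 was lost at 8C. Without single libraries, members lower and higher ran from 7 to 22 and 5 to 13 (Max, ICM), 0 to 17 and 0 to 9 (Mcrs1, ICM), 0 to 0 and 0 to 0 (Max, TE) and 0 to 1 and 0 to 2 (Mcrs1, TE); a lone remaining library was assumed to vary like the other groups. Where limma gave 0, between 3 and 14 members had an unadjusted p under 0.05. Scaling changed the split over all genes from 1329 lower and 2812 higher to 2486 and 2307 at L2C, and from 3155 and 1404 to 2232 and 2394 at 4C (quantile normalization). In the other comparisons scaling moved the median of all genes by −0.110 to 0.236 on the log2 scale. The members themselves numbered 165 to 172 under other choices, of which 131 were shared when TPM was rescaled. Fold changes of members near 1 TPM rest on the pseudocount, and read depth per gene is unknown.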
